A study of Mus musculus with 9 samples.

Results

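Taar8a, Taar8b, Taar8c and Taar9 are the 4 genes at the far end of the mouse trace amine-associated receptor (Taar) cluster from the deleted TAAR enhancer 1, and they were taken by gene symbol as 4 of the 24421 gene rows and 4 of the 14 olfactory Taar genes in the count table. RNA-seq was performed on the whole main olfactory epithelium (MOE) of 9 mice, 3 of each genotype. The wild type mice carried TAAR enhancer 1 on both alleles, the heterozygous mice (TAAR enhancer 1 +/-) had lost it from 1 allele, and the homozygous mice (TAAR enhancer 1 -/-) had lost it from both. All 3 groups are labelled as C57BL/6 mice at P14, postnatal day 14, and the paper describes them as littermates. The deletion was made by CRISPR-Cas9 in zygotes and carried as a single line, so every mutant mouse shares 1 deletion event. The study's reporting summary gives a mixed background for its mouse lines and an older age for TAAR enhancer 1 knockout mice, which differs from the labels, and the labels were used here.

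TAARs are G protein-coupled receptors that detect volatile amines. Apart from Taar1, each is expressed in a small set of olfactory sensory neurons (OSNs) of the MOE, and as a rule each such neuron expresses a single receptor gene. Enhancers are stretches of DNA that raise transcription of genes on the same chromosome, and TAAR enhancer 1 lies between Taar1 and Taar2, at the other end of the cluster. The Taar8 genes are a family of near-identical copies, while Taar9 is a single gene beside them. In bulk tissue, fewer neurons of a kind and less RNA per neuron cannot be told apart.

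The 4 genes lie on chromosome 10 of the GRCm38 assembly, each as 1 exon of coding sequence. Taar8a (ENSMUSG00000096442.1) covers chr10:24076500-24077534 on the plus strand. Taar8b (ENSMUSG00000100186.1) covers chr10:24091260-24092294, Taar8c (ENSMUSG00000100004.1) chr10:24100878-24101912 and Taar9 (ENSMUSG00000037424.6) chr10:24108488-24109534, all on the minus strand. The 5′ ends lie 138 kb (Taar8a), 154 kb (Taar8b), 163 kb (Taar8c) and 171 kb (Taar9) from the start of Taar2, the olfactory Taar gene nearest to the deletion. Gaps of 13.7, 8.58 and 6.58 kb separate the 4 neighbours, 25.9 kb separates Taar8a from Taar7f, and 39.8 kb separates Taar9 from Stx7, the first gene past the cluster.

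The coding sequences of the Taar8 genes are 1035 bases long and differ at 40 positions. Taar8a and Taar8c are the closest pair at 98.1% identity, Taar8b is 97.5% identical to Taar8c and 96.6% identical to Taar8a, and Taar8b alone holds the odd base at 20 of the 40 positions, Taar8a at 14 and Taar8c at 5, with 3 different bases at the other. The stretch with the most differences, bases 964 to 1023 near the end of the coding sequence, is printed here. Most of its differences set Taar8b apart from the other copies. Capitals mark the 11 positions at which the 3 genes are not all the same.
Taar8a, chr10:24077463-24077522, plus strand: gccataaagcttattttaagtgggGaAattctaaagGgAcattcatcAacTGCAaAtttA
Taar8b, chr10:24091272-24091331, minus strand: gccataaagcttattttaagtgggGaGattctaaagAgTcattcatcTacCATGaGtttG
Taar8c, chr10:24100890-24100949, minus strand: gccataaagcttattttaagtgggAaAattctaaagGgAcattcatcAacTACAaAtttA

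Taar8b holds the odd base at 9 of these 11 positions, and Taar8a and Taar8c at 1 each. By contrast, bases 708 to 833 are the same in all 3 genes over 126 bases, so a read within them could not be placed on 1 copy. Taar9 is only 67.6 to 68.9% identical to the Taar8 genes.

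How much of each gene a read can identify was counted over all annotated GENCODE transcripts, since the read length is not given in the sources used here. Every stretch of 50, 100 or 150 bases of Taar9 (100%) occurred in no other gene. Of 100-base stretches, 77.1% of Taar8b, 64.3% of Taar8a and 47.4% of Taar8c were unique, and at 50 bases these shares were 43.6%, 49.1% and 27.5%. Reads from shared stretches map to more than one place and drop out of the counts, so the Taar8 counts can understate the true levels, and the split among the 3 copies is uncertain.

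**Figure D1:**
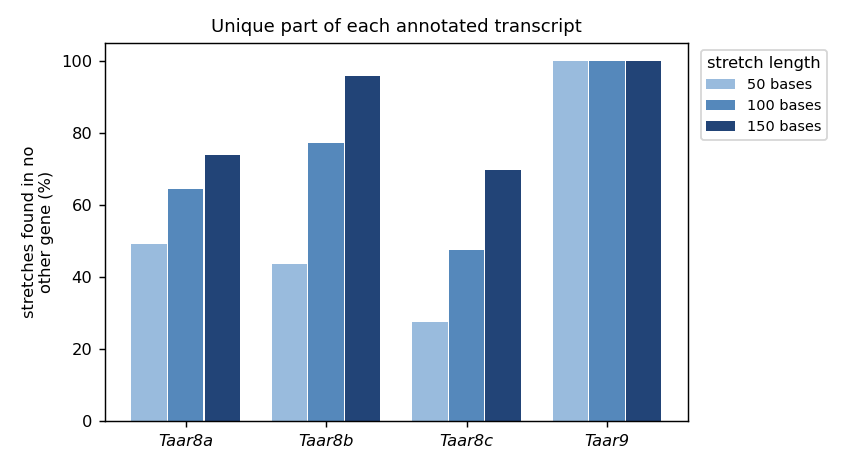
Share of all stretches of 50, 100 and 150 bases of each annotated transcript that occur in no other gene (percent, bars from 0), for the 4 genes. Taar9 stands at 100% at every length, and Taar8c has the lowest share at each length, from 27.5% at 50 bases to 69.5% at 150 bases.

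Gene totals were 24583906 to 32631951 reads per library, so that 3 reads, taken as the limit of detection, correspond to 0.0916 to 0.122 CPM (reads divided by the effective size of the library). The MOE label was borne out by its markers: the summed CPM of mature OSN genes (Omp, Gnal, Adcy3, Cnga2) was 5913 to 5997 in wild type, 5954 to 6391 in heterozygous and 6084 to 6595 in homozygous mice, and sustentacular, basal, immature OSN and ciliated-cell markers were also detected in every library. Summed vomeronasal receptor reads stood at 14.6 to 17.4 CPM in 6 libraries and at 67.5 to 120 CPM in heterozygous replicate 1 and homozygous replicates 2 and 3, while Trpc2, the vomeronasal channel gene, was listed at 0 in all 9. Results are given with and without those 3 libraries where that matters.

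Taar9 fell in homozygous mice and carried the largest signal of the 4 genes. It had 77, 88 and 69 reads in wild type replicates 1 to 3, 86, 59 and 56 in heterozygous mice, and 3, 5 and 5 in homozygous mice. In CPM these were 3.09, 2.69 and 2.67, then 3.06, 2.23 and 1.89, then 0.106, 0.203 and 0.193. Every homozygous library lay below every other library, and the wild type and heterozygous libraries overlapped. Mean expression was 2.82 ± 0.239 CPM in wild type, 2.40 ± 0.602 CPM in heterozygous and 0.167 ± 0.0537 CPM in homozygous mice (SD, n = 3 each).

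Homozygous mice retained 5.95% (SE 1.14) of the wild type mean of Taar9. The fall was 16.6-fold, with a 95% interval of 10.4 to 26.5 (log2 fold change -4.05, SE 0.32), and it passed the test across all genes (edgeR, Benjamini-Hochberg adjusted p = 7.50e-06). Against heterozygous mice the fall was 14.1-fold, with a 95% interval of 8.78 to 22.8 (edgeR, adjusted p = 4.30e-05). Pooled reads, 13 against 234, gave 5.88% of the wild type rate with an exact counting interval of 3.09 to 10.3%. Without the 3 libraries with many vomeronasal reads the log2 fold change against wild type was -4.68 (edgeR, adjusted p = 0.00129), a value that rests on homozygous replicate 1 alone, the library with the fewest Taar9 reads, and assumes that it varies like the other groups.

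Taar8b was the only Taar8 gene with more than 3 reads in any homozygous library. It had 22, 29 and 16 reads in wild type, 21, 4 and 23 in heterozygous, and 10, 5 and 7 in homozygous mice, or 0.883, 0.886 and 0.619 CPM, 0.748, 0.151 and 0.778 CPM, and 0.352, 0.203 and 0.271 CPM. The homozygous libraries were all below the wild type ones, but heterozygous replicate 2 was lower than all of them. Mean expression was 0.796 ± 0.154 CPM in wild type, 0.559 ± 0.354 CPM in heterozygous and 0.275 ± 0.0746 CPM in homozygous mice (SD, n = 3 each).

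The homozygous mean of Taar8b was 34.6% (SE 6.65) of wild type, a log2 fold change of -1.51 (SE 0.50, 95% interval -2.58 to -0.43). This did not pass the test across all genes (edgeR, adjusted p = 0.409, unadjusted p = 0.00907). By pooled reads the rate was 34.8% of wild type, with an exact counting interval of 20.5 to 57.0%, which covers counting error only. The value was -1.17 without the 3 libraries with many vomeronasal reads, which left homozygous replicate 1 alone in its group.

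Taar8a, the Taar8 copy nearest to the enhancer, was not detected in homozygous mice. Its reads were 7, 5 and 5 in wild type, 4, 6 and 5 in heterozygous, and 0 in each homozygous library. These correspond to 0.281, 0.153 and 0.193 CPM in wild type and 0.142, 0.227 and 0.169 CPM in heterozygous mice. The wild type and heterozygous ranges overlapped, and all 6 of those libraries were above the homozygous ones. Set against a floor of 3 reads in each homozygous library, the wild type level was at least 1.82-fold higher and the heterozygous level at least 1.57-fold higher. The gene did not pass the test across all genes (edgeR, adjusted p = 0.273 against wild type and 0.188 against heterozygous mice).

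Taar8c was near the limit of detection in several libraries. It had 9, 3 and 6 reads in wild type, 11, 8 and 10 in heterozygous, and 0, 0 and 2 in homozygous mice, or 0.361, 0.0916 and 0.232 CPM, 0.392, 0.302 and 0.338 CPM, and 0, 0 and 0.0774 CPM. Homozygous libraries were the lowest, though homozygous replicate 3 was only 1 read below wild type replicate 2. From 2 against 18 pooled reads the homozygous rate was 11.8% of wild type, with an exact counting interval of 1.32 to 49.2%, and from 2 against 29 reads it was 7.36% of heterozygous, with an interval of 0.850 to 29.1%. Neither difference passed the test across all genes (edgeR, adjusted p = 0.413 and 0.192).

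**Figure D2:**
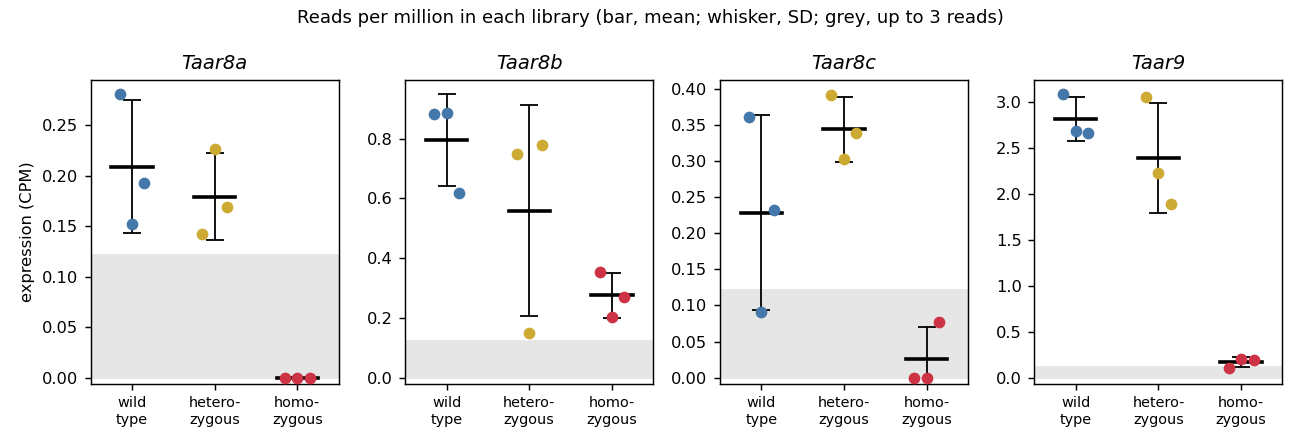
Expression in CPM of Taar8a, Taar8b, Taar8c and Taar9 in each library (points, replicates 1 to 3 from left to right), with the mean (bar) and SD (whisker) of each genotype and, in grey, the range up to 3 reads in the shallowest library. Each panel has its own scale, and the homozygous points lie below the wild type points in all 4 panels, with Taar9 at 0.106 to 0.203 CPM against 2.67 to 3.09 CPM.

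In homozygous against wild type mice, 1 of the 4 genes (Taar9) passed the test across all genes and was lower, beside 9 of 20213 genes tested, or 0.0445%, that were lower in the same comparison. All 4 had an unadjusted p under 0.05, which 9.26% of all genes had (edgeR, before Benjamini-Hochberg adjustment). All 4 also had every homozygous library below every wild type library, a pattern that 7.95% of all genes showed. The median log2 fold change of the 4 genes was -3.48 as fitted and -1.25 with Taar8a and Taar8c set at 3 reads per homozygous library, against -0.00057 over all genes. All 4 passed the filter of 10 reads in total, and for Taar8a those reads came from wild type and heterozygous libraries alone.

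Against heterozygous mice, Taar9 alone of the 4 passed the test and was lower (20 of 20213 genes, 0.0989%, were lower there). Taar8a, Taar8c and Taar9 had an unadjusted p under 0.05, as 10.4% of all genes had. The same 3 had every homozygous library below every heterozygous one, against 7.67% of all genes. The log2 difference of Taar8b was -1.01 (SE 0.52, 95% interval -2.13 to 0.10; edgeR, adjusted p = 0.530). Leaving out heterozygous replicate 2, the library with 4 reads of Taar8b, moved it to -1.44, and leaving out the 3 libraries with many vomeronasal reads moved it to -0.43.

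None of the 4 genes differed between heterozygous and wild type mice in the test across all genes (edgeR, adjusted p = 1.00 for each; 0 of 4 with an unadjusted p under 0.05, against 3.25% of all genes). A single gene of 20213 was called in that comparison, or 0.00495%. Heterozygous mice had 85.1% (SE 13.0) of the wild type mean of Taar9, with a log2 fold change of -0.23 and a 95% interval of -0.67 to 0.21. It was -0.45 without heterozygous replicate 1 and -0.088 without heterozygous replicate 3. Without the 3 libraries with many vomeronasal reads it was -0.45, and with those reads as a covariate it was -0.48 (edgeR, unadjusted p = 0.0561 and 0.0368, adjusted p = 0.999 and 1.00).

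The Taar8 genes were less precise. Heterozygous means were 85.9% (SE 19.6) of wild type for Taar8a, 70.2% (SE 26.8) for Taar8b and 151% (SE 52.7) for Taar8c. Taar8b had a log2 fold change of -0.50 (95% interval -1.45 to 0.46), which was -0.065 without heterozygous replicate 2, and Taar8c had 0.63 (95% interval -0.71 to 1.98). No gene of the 4 had all heterozygous libraries below all wild type ones, against 4.32% of all genes. The comparisons of heterozygous and of homozygous mice with wild type share the 3 wild type libraries and are not independent of each other.

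With 1 allele deleted, Taar9 stood 0.904 CPM (SE 0.355) above the midpoint of the wild type and homozygous means. Taar8c stood 0.217 CPM (SE 0.0486) above its midpoint and Taar8a 0.0750 CPM (SE 0.0313). For Taar8b the distance was 0.0234 CPM (SE 0.210), smaller than its error. These distances were not tested. Each SE reflects the spread of 3 libraries only. Taar8a and Taar8c had at most 11 reads in any library, so their SEs may understate the counting error. The homozygous SD of Taar8a was 0 because it had 0 reads there. The heterozygous mean of Taar8c, 0.344 CPM, was itself above its wild type mean of 0.228 CPM.

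**Figure D3:**
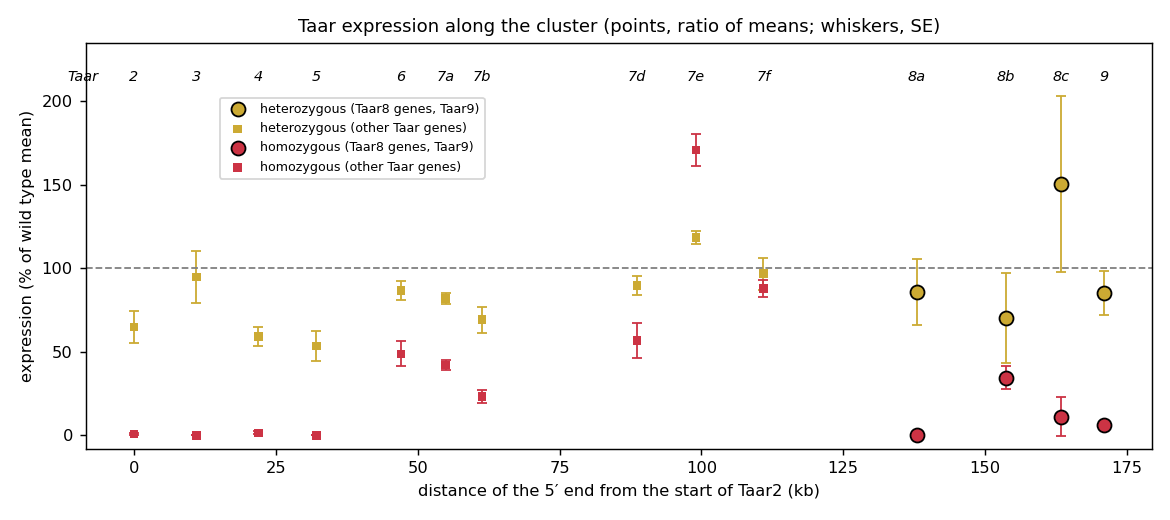
Mean expression of the 14 olfactory Taar genes as percent of the wild type mean (points; whiskers, SE; 100% dashed) against the distance of each 5′ end from the start of Taar2 in kb, with the Taar8 genes and Taar9 as ringed circles. No whisker is drawn for a gene with 0 reads in all homozygous libraries. In homozygous mice Taar9, 171 kb away, stood at 5.95%, while Taar7f, the neighbour of Taar8a, stood at 87.9%. Taar2, Taar3, Taar4 and Taar5, nearest to the enhancer, stood at 0 to 1.54%.

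Distance along the cluster did not order the homozygous levels. From Taar8a outward the homozygous means were 0, 34.6, 11.3 and 5.95% of wild type. These were lower than the 87.9% (SE 5.37) of Taar7f and the 171% (SE 9.43) of Taar7e, which lie nearer to the enhancer. Lowest as a set were the genes nearest to it, with Taar2, Taar3, Taar4 and Taar5 at 0.843, 0, 1.54 and 0%. Taar6, Taar7a, Taar7b and Taar7d stood at 48.8, 42.1, 23.2 and 56.9%. Of the other 10 olfactory Taar genes, 7 passed the test as lower and 1 (Taar7e) as higher in homozygous than wild type mice, with a median log2 fold change of -1.67 (edgeR). Against heterozygous mice 6 of the 10 were lower and 0 higher. Of all genes, 0.0445% and 0.0989% were lower in these comparisons. Between heterozygous and wild type mice 0 passed. There Taar2, Taar4, Taar5 and Taar7b, 4 of the 10, had an unadjusted p under 0.05, against 3.25% of all genes (edgeR). These and Taar7a had every heterozygous library below every wild type one, against 4.32% of all genes, with Taar5 at 53.4% of the wild type mean. The gene past Taar9, Stx7, which encodes a syntaxin of endosomes, was at 112 ± 1.18 CPM in wild type and 120 ± 11.4 CPM in homozygous mice (SD, n = 3), and it, Moxd1 and Slc18b1 did not pass the test (edgeR, lowest adjusted p = 0.623). Taar1 had 1 read in all 9 libraries together.

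Taar9 was then compared with other Taar genes within each library, a ratio that needs no normalization. The log2 ratio of Taar9 to Taar8b reads, with 0.5 read added to each, was 1.78, 1.58 and 2.07 in wild type, 2.01, 3.72 and 1.27 in heterozygous, and -1.58, 0 and -0.45 in homozygous mice. The homozygous libraries lay apart from all the others, so Taar9 reads went from a clear excess over Taar8b to equal or fewer. The mean ratio was 2.49 lower in homozygous than wild type mice on the log2 scale (difference -2.49, SE 0.49; exact permutation test over 20 splits, two-sided, p = 0.1, adjusted over 3 ratios 0.1). With 3 libraries against 3 that is the smallest p this test can give.

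Against Taar6, a gene in the middle of the cluster, the log2 ratio of Taar9 was -1.39 ± 0.054 in wild type, -1.44 ± 0.23 in heterozygous and -4.30 ± 0.81 in homozygous mice (SD, n = 3). The difference between homozygous and wild type mice was -2.92 (SE 0.47; exact permutation test, two-sided, p = 0.1, adjusted 0.1). Taar9 therefore fell further than Taar6 in each homozygous library, although the design cannot pass a threshold of 0.05. Against Taar5, near the enhancer, the ratio went the other way, from -0.10 ± 0.28 in wild type and 0.56 ± 0.52 in heterozygous to 3.24 ± 0.38 in homozygous mice (difference 3.34, SE 0.27; exact permutation test, two-sided, p = 0.1, adjusted 0.1). Taar5 had 0 reads in all 3 homozygous libraries, so the size of that ratio is set by the 0.5 read added, but each homozygous library held reads of Taar9 and none of Taar5.

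**Figure D4:**
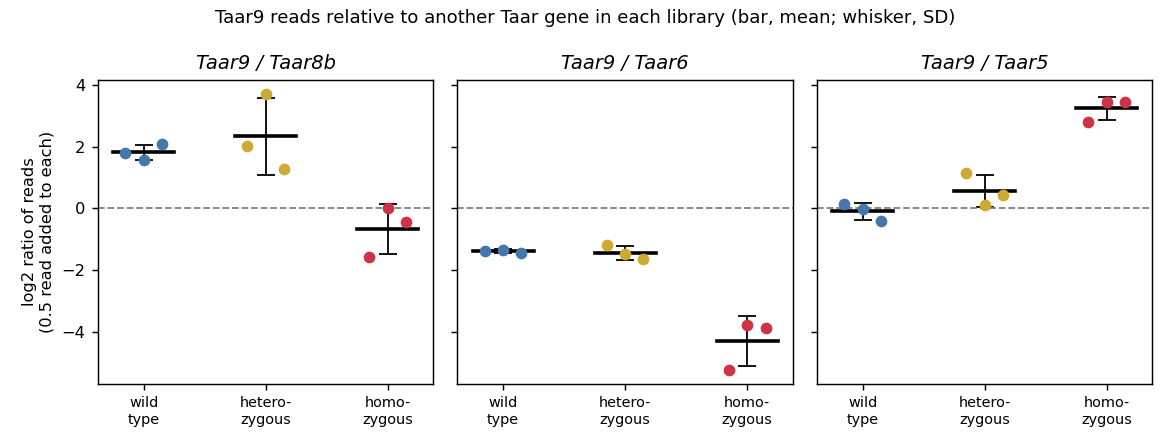
Log2 ratio of Taar9 reads to those of Taar8b, Taar6 and Taar5 in each library (points, replicates 1 to 3 from left to right), after 0.5 read was added to each count, with the mean (bar) and SD (whisker) of each genotype. In homozygous mice the ratio was lower for Taar8b (mean -0.68) and Taar6 (mean -4.30) and higher for Taar5 (mean 3.24) than in wild type mice, with no overlap in any panel.

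Per kilobase of coding length, the levels in wild type mice were 2.69 ± 0.228 CPM for Taar9, 0.769 ± 0.148 CPM for Taar8b, 0.221 ± 0.130 CPM for Taar8c and 0.202 ± 0.0634 CPM for Taar8a (SD, n = 3). Taar9 and Taar8b were each apart from the next gene in every library, and Taar8c and Taar8a overlapped. In heterozygous mice the order of the means was the same, but Taar8b (0.540 ± 0.342 CPM) overlapped Taar8c (0.333 ± 0.0435 CPM). Homozygous mice had Taar8b first, at 0.266 ± 0.0721 CPM per kilobase, and Taar9 second, at 0.160 ± 0.0513 CPM, with 5 reads each in homozygous replicate 2. Since reads from shared stretches are lost, the Taar8 genes may be placed too low in this order.

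The makeup of the reads moved with genotype. Taar9 supplied 69.7% ± 2.52 of the reads of the 4 genes in wild type, 68.9% ± 8.64 in heterozygous and 36.3% ± 13.5 in homozygous mice (SD, n = 3). Taar8b supplied 19.7% ± 3.30, 15.6% ± 9.73 and 59.0% ± 15.5. The homozygous shares rest on 13, 10 and 14 reads per library, and in single libraries the exact binomial interval of the Taar9 share was as wide as 18.7 to 81.3%.

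**Figure D5:**
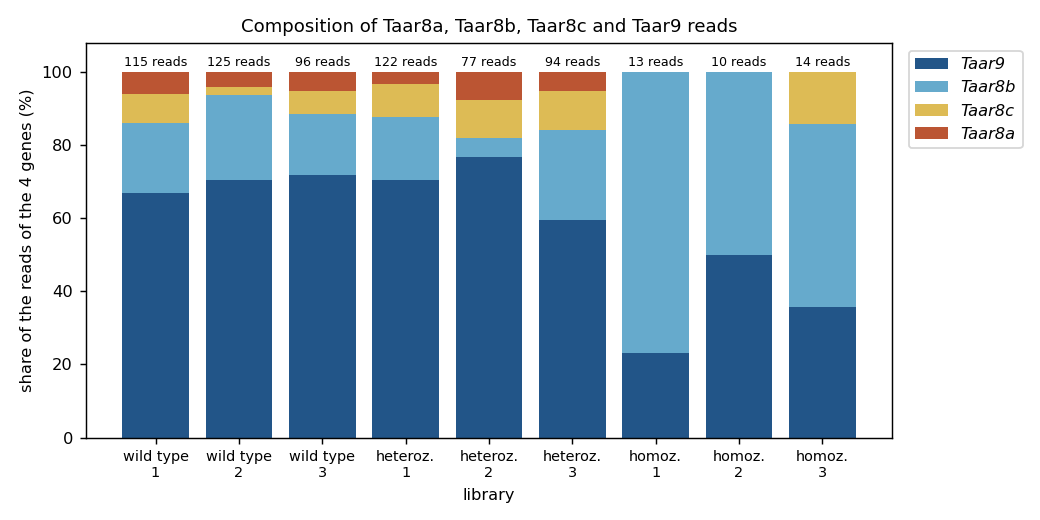
Share of the reads of the 4 genes taken by Taar9, Taar8b, Taar8c and Taar8a in each library (stacked bars, percent), with the number of reads above each bar. Taar9 takes most of each wild type and heterozygous bar, and in the homozygous bars, which hold 10 to 14 reads, Taar8b takes 50% or more.

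Taken as shares of all olfactory Taar reads, the 4 genes held 9.04% ± 1.08 in wild type, 9.28% ± 2.07 in heterozygous and 2.14% ± 0.347 in homozygous mice (SD, n = 3). Every homozygous library, at 1.81 to 2.504%, was below every other library, at 7.50 to 11.6%. Pooled over libraries these were 336 of 3738, 293 of 3154 and 37 of 1750 reads. The 4 genes thus lost a larger part of their reads than the olfactory Taar genes together. That loss was not particular to them. Pooled reads of Taar2, Taar3, Taar4 and Taar5 went from 255, 98, 198 and 251 in wild type to 2, 0, 3 and 0 in homozygous mice. Taar7e, which is part of the total, rose from 394 to 640 reads. Taar9 alone went from 6.29% ± 0.515 in wild type to 0.789% ± 0.331 in homozygous mice.

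Because reads can be split among near-identical copies, the Taar8 genes were also summed. The sums were 38, 37 and 27 reads in wild type, 36, 18 and 38 in heterozygous, and 10, 5 and 9 in homozygous mice, or 1.53, 1.13 and 1.04 CPM, 1.28, 0.681 and 1.29 CPM, and 0.352, 0.203 and 0.348 CPM. Homozygous libraries lay below all others, and heterozygous and wild type libraries overlapped. The homozygous mean was 24.4% (SE 4.94) of wild type, and a sum over chosen genes was given no test.

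Within that sum Taar8b held 65.2% ± 11.5 in wild type, 47.0% ± 21.5 in heterozygous and 92.6% ± 12.8 in homozygous mice (SD, n = 3). Heterozygous replicate 2 was lowest, with Taar8b at 4 of 18 Taar8 reads, or 22.2% (exact binomial interval 6.41 to 47.6%). The other heterozygous libraries stood at 58.3 and 60.5%, and their intervals, 40.8 to 74.5% and 43.4 to 76.0%, overlap that one. The 4 reads of heterozygous replicate 2 allow an exact Poisson interval of 1.09 to 10.2 reads. This is below the 13.0 to 32.1 and 14.6 to 34.5 reads of the others. Taar8a and Taar8c were not low in heterozygous replicate 2, with 6 and 8 reads.

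The summed heterozygous Taar8 mean was 87.8% (SE 19.4) of wild type, a change of -12.2% that became 4.09% when heterozygous replicate 2 was left out.

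Genes whose log2(CPM + 0.1) followed Taar9 most closely over the 9 libraries, of 16166 genes with a mean of at least 1 CPM, were Taar2 (Pearson r = 0.986), Taar5 (0.980), Taar4 (0.9748), Msx2, a homeobox gene (0.973), and Itgb1, an integrin subunit (0.955). The points share 3 genotypes, so these values describe the step between genotypes and carry no test. Among Taar genes under that level, Taar3 followed Taar9 at 0.983, Taar8a at 0.962, Taar8c at 0.865 and Taar8b at 0.622. Above it, Taar7a stood at 0.952, Taar7b at 0.930, Taar6 at 0.901, Taar7d at 0.783 and Taar7f at 0.402, while Taar7e ran opposite at -0.960. Taar8b was most like Nubp1 (0.969), Shmt1 (0.956), Pafah2 (0.938), Etfdh (0.931) and Vps36 (0.927), none of them receptors. These are the highest of 16166 genes, over 9 libraries with 4 to 29 Taar8b reads each, and whether they share regulation with Taar8b was not tested.

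Genes of olfactory signalling and of receptor choice were examined beside the receptors. Of 17 genes of olfactory transduction, including Gnal, Adcy3, Cnga2 and Ano2, which encode the G protein, cyclase and channels of the OSN cilium, 0 passed the test in any of the 3 comparisons, and homozygous against wild type log2 fold changes ran from -0.13 to 0.14 with a median of 0.084 (edgeR, lowest adjusted p = 0.345; 6 with an unadjusted p under 0.05, against 9.26% of all genes). Of 11 genes of receptor choice, including Lhx2, Ldb1, the Ebf genes and Kdm1a, 0 passed in any comparison (edgeR, homozygous against wild type: lowest adjusted p = 0.237; 4 with an unadjusted p under 0.05, against the same 9.26%), with values from -0.046 to 0.21. In either list, every gene with an unadjusted p under 0.05 in homozygous against wild type mice was higher in homozygous mice, Atf5 the most (0.21). Against heterozygous mice, 3 transduction and 4 receptor choice genes had an unadjusted p under 0.05, against 10.4% of all genes (edgeR). Of these, Slc24a4 (-0.19) and Bptf (-0.13) were lower in homozygous mice and the others higher. Most OSNs express odorant receptors, so the levels of these listed genes reflect mainly other neurons.

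Windows of 300 bases, ending 50 bases after the annotated start, were held in RefSeq (GRCm38.p6) for Taar8b and Taar9. For these genes the annotated start is that of the coding sequence. A motif before it is therefore not placed relative to a start of transcription, and the windows need not hold the promoter. The windows were searched on both strands for TAATTA, a core of homeodomain sites, and TATAAA, a form of the TATA box. A palindromic form of the Ebf site was searched as well. TAATTA occurred in 5.29% of 32851 such windows and, of 11 Taar windows, in that of Taar8b alone, 148 bases before the annotated start, where it overlaps a match to TATAAA. Taar8a and Taar8c had no window and were not searched. The match to TAATTA is shown, with the motif in capitals, as the only one in the Taar windows searched.
Taar8b, chr10:24092425-24092454, minus strand: ttaatttctttaTAATTAaaatagaaaaag

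TATAAA was found in 13.6% of all windows and in 6 of the Taar windows, Taar8b among them, and the Ebf site in 0.904% of all windows and in no Taar window. The window of Taar9 held none of these motifs.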

How the data were processed

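RNA was extracted from the whole MOE of 9 mice, and polyA-selected directional libraries were made. Per the labels and the submitters' processing notes, reads were processed with Trimmomatic 0.36, HISAT2 2.1.0, HTSeq 0.6.1p1 and DESeq2 1.20.0 on GRCm38/mm10, whereas the paper names featureCounts as the counter. The annotation and strand setting are not given in the sources used here. The authors deposited raw read counts per gene, in which 57.4 to 60.0% of tabulated reads fell in genes, 21.6 to 22.4% in none, 16.9 to 19.4% mapped to several places and 1.29 to 1.35% were ambiguous. These 5 summary rows were left out. The other deposited table, a normalized signal that the authors made by dividing counts by a size factor for each library, served only as a check.

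Genes with at least 10 reads over the 9 libraries (20213 genes) were normalized by TMM and tested by quasi-likelihood in edgeR 4.0.16 (R 4.3.3). The model held genotype alone, all libraries shared 1 estimate of the spread, and p-values had Benjamini-Hochberg adjustment over all genes at 0.05. CPM used TMM effective sizes, and vomeronasal sums used raw sizes. Ratios were tested by exact permutation in SciPy 1.17.1, and counting intervals are exact at 95%. No pair of libraries of the same genotype agreed within sampling noise (chi-square per degree of freedom at least 4.47). Alternatives included DESeq2 1.42.0, other filters and scalings, and leaving out libraries. Positions and identities came from GENCODE M21 and Biopython 1.88. The genes and gene lists were chosen with earlier results of these data known. Genes named are the 4 genes, other Taar and flanking genes where a comparison turns on them, the 5 most correlated with Taar9 and with Taar8b, and the 2 lists of signalling and receptor choice genes.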

Additional observations from a re-analysis of the deposited data

How the results depend on the processing

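Taar9 was called lower in homozygous mice under every alternative that gave it an adjusted p-value, with log2 fold changes of -4.68 to -3.80 against wild type and -4.23 to -3.56 against heterozygous mice (edgeR or DESeq2, highest adjusted p = 0.00129 and 0.0129), and no Taar8 gene was called under any of them. DESeq2 with default settings gave it no adjusted p-value in these 2 comparisons, and the filterByExpr filter of edgeR removed Taar8a and Taar8c. Among the alternative values of the 4 genes, their ratios and the Taar8 sum, 241 kept their direction and 2 reversed. That count says little about calls, since the ratio tests could not pass the threshold and the Taar8 sum had no test. Only Taar9 in homozygous mice had a call to lose, in 17 alternatives against wild type and 17 against heterozygous mice. The other gene values could only have gained one, and none did. The heterozygous change of Taar8a ran from -0.40 to 0.056 (log2) over libraries left out, the highest without wild type replicate 1, and that of the summed Taar8 genes 4.09% without heterozygous replicate 2. At 0 to 29 reads per Taar8 gene and library, depth limits what can be said of single copies.

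Over libraries left out in turn, the summed Taar8 change ran from -20.4 to 4.09% in heterozygous and from -77.6 to -71.6% in homozygous mice.

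The number of genes called, the background for these genes, was less stable, and the cause was not tested. In homozygous against wild type mice 10 genes became 65 with DESeq2 defaults, 48 without its independent filtering, 47 with only the 6 libraries compared, and 8 to 33 over libraries left out in turn, the highest without heterozygous replicate 3 and 16 without heterozygous replicate 2. The 1 gene of the heterozygous against wild type comparison became 3 by either DESeq2 setting, 0 with 6 libraries, and 0 to 1 over libraries left out. In homozygous against heterozygous mice 23 became 122 and 123 by the DESeq2 settings, 50 with no filter, 11 with 6 libraries, 6 without the libraries with many vomeronasal reads, 8 with those reads as a covariate, and 7 to 190 over libraries left out, the lowest without heterozygous replicate 1 and the highest without heterozygous replicate 3.

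Correlations of same-numbered deviations ran from -0.16 to 0.30, the highest between heterozygous and homozygous replicates 2 (0.25) and 3 (0.30). The labels do not say whether a number marks a litter or batch, so pairing by number was not assumed. With the replicate block, 12, 0 and 41 genes were called in the comparisons in the order above, Taar9 was at -4.06 (edgeR, adjusted p = 4.52e-05) against wild type and at -3.81 (adjusted p = 0.000181) against heterozygous mice, and the ratio tests reached p = 0.25, the smallest an exact sign-flip permutation over 3 pairs can give. No call of the 4 genes changed.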
